A study of Mus musculus with 15 samples.

Results

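Loss of Foxo1, Foxo3 and Foxo4 was examined in the ALDH- fraction of sorted islet cells, with 5 triple knockout (KO) libraries set against 3 triple heterozygous control (Ctrl) libraries. These are 8 of the 15 libraries of the series, chosen by the labels as every library with negative ALDH activity; the other 7 are ALDH+ libraries of the same genotypes, 2 Ctrl and 5 KO. Islets were isolated from mice on a mixed 129JC57BL/6 background, and the cells carried a red fluorescent reporter switched on by cre, so that every library comes from cells in which cre had acted, controls included. Aldefluor, a dye retained by cells with aldehyde dehydrogenase activity, then split the red cells, and the labels describe the ALDH- fraction as healthy beta cells. The cre driver was RIP-Cre, an insulin promoter transgene, in Ctrl 1, Ctrl 2, KO 1, KO 2 and KO 3. It was Pdx-Cre, which acts in the pancreatic progenitors that give rise to every pancreatic epithelial lineage, in Ctrl 3, KO 4 and KO 5. The methods give an age of 6 months and 10 to 20 animals per genotype for the RIP-Cre mice, without saying how animals were divided among libraries. They do not give the age of the Pdx-Cre mice, and they describe RIP-Cre controls with intact Foxo alleles where the labels record heterozygotes. Libraries were made from poly-A RNA, and the deposited values are FPKM, fragment counts scaled by transcript length and by library size. Nothing states that the libraries of a group are separate animals, so p-values measure the spread between libraries.

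FoxO proteins are forkhead transcription factors that insulin signalling holds out of the nucleus through phosphorylation by Akt. In beta cells they move to the nucleus under metabolic stress, and mice lacking them in beta cells are known for loss of beta cell identity and the appearance of dedifferentiated cells. ALDH1A3, an enzyme that makes retinoic acid, is a marker of such cells, and the ALDH- fraction is the complementary population.

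Of 11132 genes tested, 2 passed an adjusted p of 0.05 in the ALDH- comparison (0.018%), both lower in KO: Mir686 and Fxyd6. The Mir686 value rests on almost no reads. RefSeq (GRCm38.p6) places its hairpin at chr14:54616677-54616785 on the minus strand, and all 109 of its bases lie inside coding exon 2 of Psmb5, a catalytic subunit of the proteasome. The hairpin and the mature microRNA are shown because this overlap bears on what was counted. Capitals mark the mature sequence within the hairpin and the seed (bases 2 to 8) within the mature sequence.
Mir686 hairpin: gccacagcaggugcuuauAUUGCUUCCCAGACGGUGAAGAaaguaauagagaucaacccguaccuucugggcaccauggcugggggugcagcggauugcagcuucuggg
mmu-miR-686: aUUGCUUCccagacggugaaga

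Fxyd6 encodes a small membrane protein of the FXYD family, which regulates the sodium pump. Its RefSeq promoter, 250 bases before to 50 after the start of transcription, lies at chr9:45369935-45370234 (GRCm38.p6, plus strand). It was searched on both strands for GTAAACA, the core of the forkhead binding motif, and holds no match. The promoter of 4930481A15Rik, a transcript of unknown function, at chr19:5406565-5406864 (plus strand) is shown with it as the only one with a match among the promoters found for 17 of the 24 leading genes. The match, which begins 61 bases before the start, is in capitals and reads on the opposite strand.
Fxyd6: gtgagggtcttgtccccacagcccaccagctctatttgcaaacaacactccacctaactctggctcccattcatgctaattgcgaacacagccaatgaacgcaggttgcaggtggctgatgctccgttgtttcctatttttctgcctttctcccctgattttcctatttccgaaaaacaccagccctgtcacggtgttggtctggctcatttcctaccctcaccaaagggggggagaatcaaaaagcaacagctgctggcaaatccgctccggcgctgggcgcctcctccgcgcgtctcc
4930481A15Rik: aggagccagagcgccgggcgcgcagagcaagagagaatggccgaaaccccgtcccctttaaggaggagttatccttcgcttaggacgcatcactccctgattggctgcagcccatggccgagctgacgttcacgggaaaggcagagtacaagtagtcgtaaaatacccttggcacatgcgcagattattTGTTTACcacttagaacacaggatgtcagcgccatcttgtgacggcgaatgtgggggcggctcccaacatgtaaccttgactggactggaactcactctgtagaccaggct

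Among the 12 leading genes (lowest p) on the higher side, 9 had an entry in the promoter table and none of their 14 promoters held the motif. Among the 12 on the lower side 8 were matched, and 1 of 8 promoters held it. Of all 32851 promoters in the table, 3.65% did.

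The 8 libraries held 7492010 to 10057827 fragments over genes (median 9568965), without the genes whose depth the quantifier could not resolve. These included Ins1 in all 8 libraries and Ins2 in 3 of them, so insulin transcripts are not compared here. The other beta cell markers summed to between 90076 and 123368 rescaled FPKM in every library, while stellate cell markers stayed at or under 1.42 and endothelial markers at or under 6.34. Aldh1a3 lay between 0.482 and 4.19 FPKM in the 8 ALDH- libraries and between 22.3 and 78.2 in the ALDH+ libraries. Some libraries stood apart. The Pdx-Cre libraries carried far more RNA of the other islet hormones and less of Slc2a2 and Nkx6-1, described below. The summed beta cell markers do not show the latter. Ctrl 3 and KO 5 had Xist and no Y-linked transcripts, and the other 6 libraries the reverse. KO 5 correlated least with the rest (mean Pearson r of 0.871 over genes, against 0.892 to 0.922 for the others) and held the highest sum of acinar markers, 439 FPKM.

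The targeted genes were read first. Foxo1 stood at 19.5, 16.0 and 17.6 rescaled FPKM in Ctrl, and at 2.41, 3.59, 2.46, 4.05 and 0.0978 in KO 1 to KO 5. Every KO library lay below every control, and the lowest was KO 5 with 5 fragments. The log2 difference was -2.55 ± 0.44 (SE, 3 Ctrl and 5 KO libraries), with an adjusted p of 0.258 in limma over all genes. An exact permutation test on Foxo1 alone, two-sided and with libraries exchanged only within a cre driver, gave p = 0.0333, the smallest that its 30 arrangements allow. Without KO 5 the limma call passed the threshold, at a log2 difference of -2.19.

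Foxo3 did not separate the groups. It was 22.3, 17.0 and 13.8 FPKM in Ctrl, and 13.9, 10.01, 22.4, 11.4 and 17.3 in KO. The log2 difference was -0.24 (95% interval -0.85 to 0.37), with p = 0.567 in the exact permutation test. A gene-level FPKM also counts transcripts that lack a deleted exon, and the tables give no exon values. Foxo4, which is X-linked, was scarce: 47, 19 and 3 fragments in Ctrl and 0, 0, 0, 0 and 2 in KO. Pooled over libraries and set for depth, Ctrl held 53.7 times as much Foxo4 as KO (95% exact binomial interval 14.3 to 453, for counting error only). The exact permutation test within cre drivers gave p = 0.0333 for it as well. Under Pdx-Cre, Foxo4 had 3 fragments in Ctrl 3 against 0 and 2 in KO 4 and KO 5. The difference thus rests mostly on the RIP-Cre libraries.

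**Figure D1:**
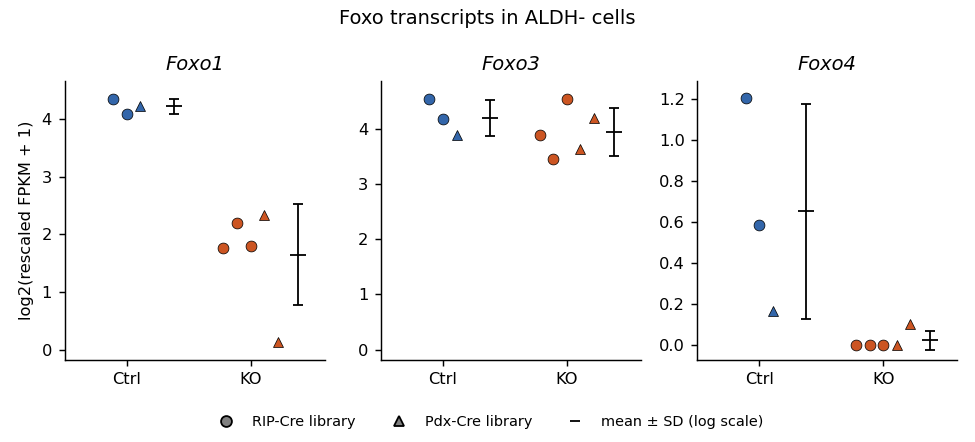
Expression of Foxo1, Foxo3 and Foxo4 in each ALDH- library, as log2(rescaled FPKM + 1), by genotype, with circles for RIP-Cre and triangles for Pdx-Cre libraries and a bar for the mean ± SD of each group (3 Ctrl, 5 KO). Foxo1 lies between 16.0 and 19.5 FPKM in Ctrl and at or under 4.05 in KO, Foxo3 overlaps between the groups, and Foxo4 is close to 0 in KO.

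Fxyd6 fell in KO. It measured 42.8, 41.5 and 53.7 FPKM in Ctrl against 13.4, 14.9, 11.1, 21.6 and 24.4 in KO, from 723 to 849 and 187 to 377 fragments. No KO library reached the lowest control, and the RIP-Cre knockouts were lower than the Pdx-Cre knockouts. The log2 fold change was -1.47 ± 0.19 (SE), with a limma adjusted p of 0.0443. The gene lies at chr9:45178268-45204242 in the tables' build, mm9. The call sits close to the threshold: leaving out any 1 library other than KO 5 raised the adjusted p above 0.05, while the log2 fold change stayed between -1.62 and -1.39. In ALDH+ cells the log2 fold change was -0.75 ± 0.35 (SE, 2 Ctrl and 5 KO), with a limma p of 0.0583, unadjusted over genes fitted across the whole table.

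Mir686 was listed at 78.1, 474 and 428 FPKM in Ctrl and at 0 in all 5 KO libraries. The width of the confidence intervals puts 0.3, 3.0 and 1.6 fragments behind the Ctrl values, at or under the floor of 3 fragments, so no fold change is given. The limma adjusted p was 5.26e-05, and with voom, which weights values by fragment number, the gene was not called. Psmb5, whose exon holds the hairpin, was 90.1, 101 and 158 FPKM in Ctrl and 55.7, 87.6, 85.8, 82.0 and 112 in KO. Its log2 fold change was -0.48 ± 0.20 (SE, adjusted p = 0.943 in limma), and the groups overlapped. Whether the sources counted by strand is not given, and fragments of the 2 genes cannot be told apart. In ALDH+ cells Mir686 was listed at 521 and 322 FPKM in Ctrl and at 0 in 4 KO libraries, with 89.8 in the fifth.

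Beyond these genes the comparison called none higher and no other lower, and voom also called none higher. At an unadjusted p of 0.05, limma passed 253 genes higher in KO (2.27%) and 306 lower (2.75%), which together make 5.02% of the genes tested. KO values lay wholly above Ctrl for 159 genes (1.43%) and wholly below for 178 (1.6%). The median gene differed by -0.01 on the log2 scale and the median SE was 0.29.

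**Figure D2:**
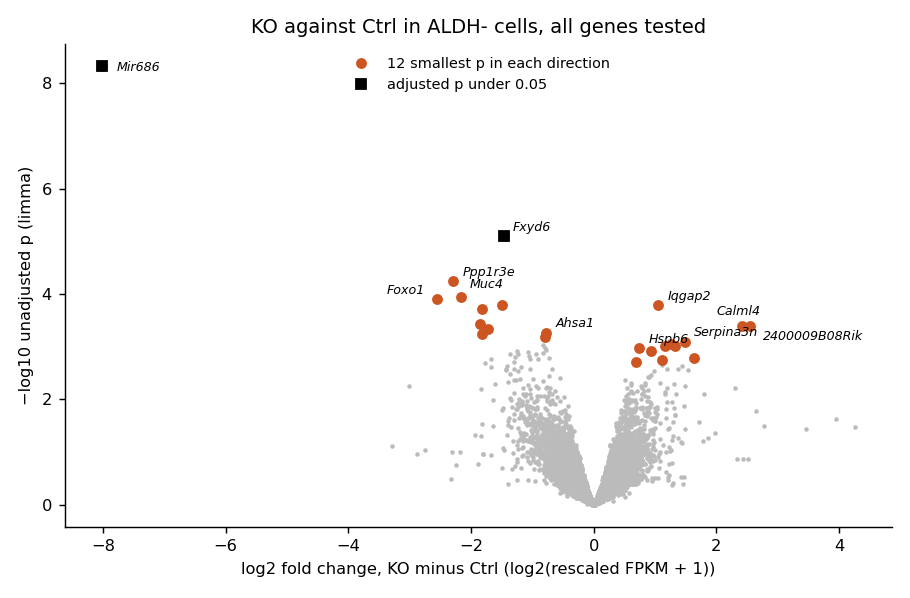
Log2 fold change (KO minus Ctrl, on log2(rescaled FPKM + 1)) against −log10 of the unadjusted limma p for the 11132 genes tested in ALDH- cells. Black squares mark Mir686 and Fxyd6, the only genes with an adjusted p under 0.05, and orange points the other genes among the 12 of lowest p on each side.

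The 24 leading genes, those of lowest p with 12 per direction, were chosen by this contrast, so their values here are a description. Groups were apart for 19 of them, 9 higher and 10 lower, and the difference had the same sign under both cre drivers for all 24. Apart from Mir686 and Fxyd6 none passed the adjusted threshold.

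Iqgap2, a scaffold protein of the IQGAP family, led the higher side. It was 14.001, 14.3 and 8.86 FPKM in Ctrl and 29.2, 26.4, 25.4, 23.3 and 25.8 in KO. The KO libraries were close together and all above the controls, at a log2 difference of 1.06 ± 0.19 (SE, adjusted p = 0.258 in limma). Fitted with all 15 libraries Iqgap2 passed, at an adjusted p of 0.0448 in limma. That fit treats ALDH- and ALDH+ libraries as independent, although both fractions may come from the same animals. The loci of Iqgap2, Calml4, Tpd52l1 and A230050P20Rik overlap those of F2rl2, Gm10653, Gm3258 and Angptl6 in the tables.

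Calml4, a calmodulin-like gene, was 1.78, 1.804 and 1.13 FPKM in Ctrl and 8.76, 5.39, 9.17, 52.5 and 16.6 in KO. The Pdx-Cre knockouts held the 2 highest values. 2400009B08Rik, listed as Fcor in RefSeq, had no fragment in any Ctrl library and 10, 20, 4, 9 and 2 in KO. Against a floor of 3 fragments over the Ctrl group it was at least 9.63-fold higher in KO. In ALDH+ cells it was too low to test, at 0 and 1.44 FPKM in Ctrl and at 0, 1.22, 0, 0 and 0 in KO, so a rise was not seen there.

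The small heat shock protein gene Hspb6 was even within groups, at 72.3, 72.4 and 77.8 FPKM in Ctrl and 116, 114, 162, 131 and 107 in KO. The nuclear factor I gene Nfix was 9.36, 8.98 and 6.81 FPKM in Ctrl and 23.6, 18.6, 14.5, 13.5 and 14.3 in KO. Bnip2, which encodes a protein that interacts with BCL2 family members, was 5.78, 4.99 and 3.33 FPKM in Ctrl and 16.7, 16.5, 8.70, 8.14 and 7.16 in KO. For these 3 genes the groups did not overlap.

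Serpina3n, an acute phase serine protease inhibitor, was 18.4, 11.04 and 34.1 FPKM in Ctrl and 24.6, 34.1, 33.5, 113 and 256 in KO. Ccl2, a chemokine that draws monocytes, was 0.274, 1.82 and 5.12 FPKM in Ctrl and 7.45, 5.98, 2.82, 11.5 and 25.3 in KO. Both were highest in KO 4 and KO 5, and their groups overlapped. Macrophage and leukocyte markers summed to 30.5 to 140 FPKM in Ctrl and to 24.6 to 177 in KO; their part in the Ccl2 values was not tested. The epithelial ETS factor gene Ehf, the tumour protein D52 family gene Tpd52l1, A230050P20Rik and Fam36a, which encodes a cytochrome c oxidase assembly factor, had log2 differences of 1.26, 1.32, 1.16 and 0.69.

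On the lower side, Ppp1r3e, a glycogen-targeting subunit of protein phosphatase 1, was 6.71, 4.95 and 8.72 FPKM in Ctrl and 0.607, 0.904, 0.795, 0.0551 and 0.573 in KO. The fragments behind these values were 105 to 135 in Ctrl and 1 to 15 in KO. Its log2 difference was -2.29 ± 0.36 (SE, adjusted p = 0.212 in limma). No KO library came near the controls.

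Muc4, a membrane mucin, was 12.3, 9.94 and 13.9 FPKM in Ctrl and 3.80, 0.635, 1.63, 2.96 and 1.56 in KO, a log2 difference of -2.17 ± 0.37 (SE, adjusted p = 0.258). With voom on fragments it passed, at an adjusted p of 0.0163. Its locus overlaps Muc20 in the tables.

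Fam129a, a stress-responsive gene, was 15.8, 11.6 and 18.9 FPKM in Ctrl and 2.02, 3.48, 7.45, 2.21 and 3.92 in KO. Pdgfrl, a PDGF receptor-like gene, was 10.6, 10.3 and 9.85 FPKM in Ctrl and 3.01, 2.32, 2.96, 4.17 and 2.92 in KO. Ahsa1, a co-chaperone that activates HSP90, was 57.7, 59.3 and 43.0 FPKM in Ctrl and 34.9, 29.8, 31.9, 25.5 and 29.3 in KO. The groups were apart for each of these genes.

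Dusp26, a dual-specificity phosphatase gene, had 56, 35 and 43 fragments in Ctrl and 0, 0, 0, 2 and 1 in KO. Set for depth, Ctrl held 69.6 times the KO level (95% exact binomial interval 23.3 to 342, counting error only). 4930481A15Rik had 19.9 to 36 fragments in Ctrl and 1.1 to 5.4 in KO, and overlaps Drap1. Spc25, a kinetochore component, had a log2 difference of -0.79 with overlapping groups.

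**Figure D3:**
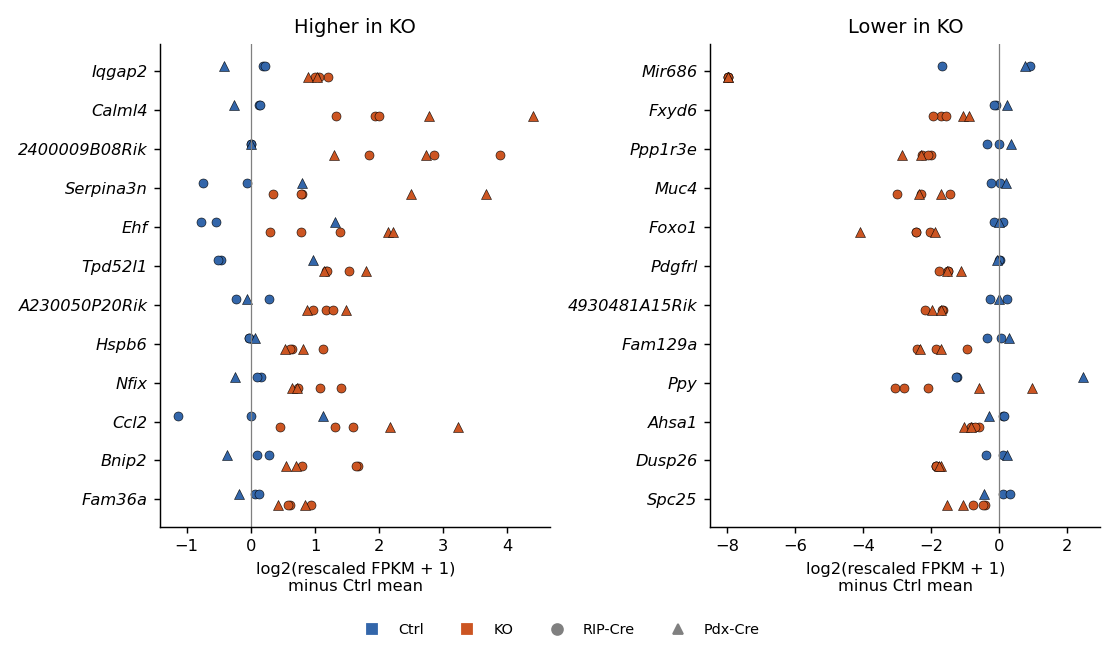
Value of each ALDH- library as log2(rescaled FPKM + 1) minus the mean of the 3 Ctrl libraries, for the 12 genes of lowest p higher in KO (left) and lower in KO (right), blue for Ctrl and orange for KO, circles for RIP-Cre and triangles for Pdx-Cre. The groups are apart for 9 genes on the left and 10 on the right, and the points of Mir686 rest on 3 fragments or fewer per library.

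The ALDH+ libraries took no part in choosing these 24 genes and were fitted separately (2 Ctrl and 5 KO, with the cre driver). The sources do not say which ALDH+ and ALDH- libraries came from the same animals. Of the 11 genes from the higher side that could be tested in ALDH+ cells, 7 had the same sign and 6 of these had an unadjusted limma p under 0.05, where 3.98% of all genes were higher in KO at that level. Of the 11 from the lower side, 10 had the same sign and 6 had an unadjusted p under 0.05, where 2.65% of all genes were lower. The latter 6 include Foxo1, the targeted gene, and Mir686 with its few fragments. They also include Ppy, whose fall rests largely on the only Pdx-Cre control. No gene passed the adjusted threshold among the 11343 tested in ALDH+ cells, where limma passed 452 genes higher and 301 lower at an unadjusted p of 0.05.

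Iqgap2 was 14.4 and 10.4 FPKM in ALDH+ Ctrl and 24.0, 25.6, 26.1, 26.6 and 23.0 in ALDH+ KO, nearly the levels of the ALDH- libraries. Muc4 was 37.2 and 30.2 FPKM against 6.39, 1.88, 13.5, 5.30 and 9.12, and its controls were above those of the ALDH- cells. Its log2 difference there was -2.25 ± 0.54 (SE). The Foxo1 difference was -2.62 ± 0.41 (SE) in ALDH+ cells.

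Calml4, Serpina3n, Ehf, Tpd52l1, Hspb6, Fam129a, Ppy and 4930481A15Rik also kept their sign in ALDH+ cells with an unadjusted p under 0.05. Nfix, Bnip2, Fam36a and A230050P20Rik did not, with log2 differences of -0.12, -0.21, -0.07 and -0.11. Ppp1r3e, Pdgfrl and Spc25 kept their sign but not at that level, with log2 differences of -0.58, -0.02 and -0.20 (SE 0.79, 0.58 and 0.50). Ahsa1 had the opposite sign, 0.46. The difference between the ALDH+ and ALDH- effects was tested as an interaction over all 15 libraries, and none of 11253 genes passed (476 at an unadjusted p of 0.05, with 0.701 as the adjusted p for Ahsa1).

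**Figure D4:**
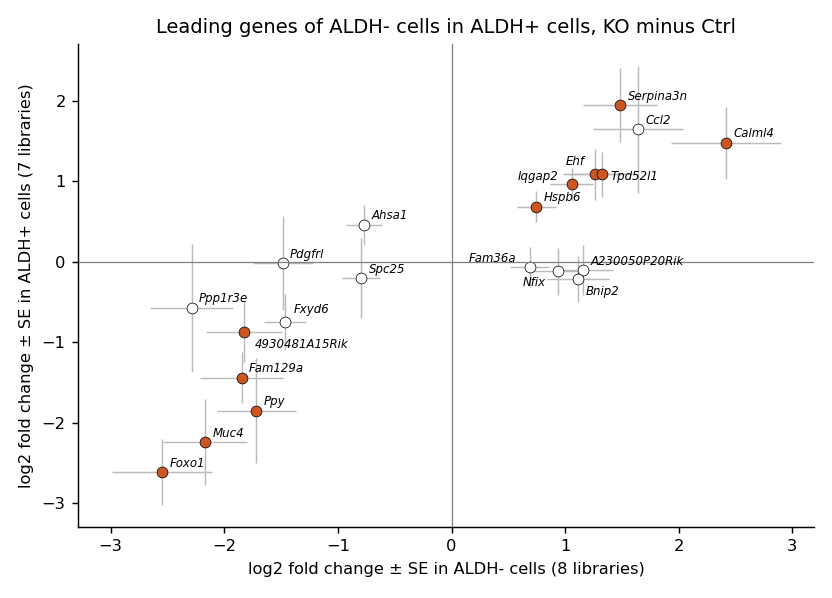
Log2 fold change (KO minus Ctrl) ± SE in ALDH- cells against that in ALDH+ cells for 21 of the 24 leading genes, with filled points for an unadjusted p under 0.05 in ALDH+ cells. Foxo1, Muc4 and Fam129a lie low on both axes and Iqgap2, Hspb6 and Calml4 high on both, whereas Nfix, Bnip2, Fam36a and A230050P20Rik lie near 0 in ALDH+ cells; Mir686 is off the scale and left out.

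Apart from Foxo1, only Tpd52l1 of the 24 lies on a chromosome that carries one of the targeted Foxo genes, 10.9 Mb from Foxo3 on chromosome 10. Of all 11132 genes tested, 1475 lie on such a chromosome. Among the other 23 leading genes 1 (4.35%) lies within 20 Mb of a targeted gene, against 289 (2.60%) of all genes tested.

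Genes listed here as FoxO targets showed little difference. Of 29 tested, none passed the threshold, 17 were lower in KO and 12 higher, and the median log2 difference was -0.10. Among the 29, Cyb5r3 and Ndor1 were also named by the study from this series, so they are not independent of these data. At an unadjusted p of 0.05, 2 were lower and none higher, against 2.75% and 2.27% of all genes.

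One was Gabarapl1, an autophagy gene, at 86.5, 90.3 and 76.7 FPKM in Ctrl and 64.9, 50.8, 75.9, 63.7 and 64.6 in KO. The other was Cyb5r3, a cytochrome b5 reductase, at 329, 307 and 376 FPKM in Ctrl and 77.0, 142, 68.8, 208 and 377 in KO. The RIP-Cre knockouts were all below the controls, whereas KO 5 matched the Pdx-Cre control. The log2 difference was -1.30 ± 0.32 (SE, adjusted p = 0.543 in limma), at -1.79 in the RIP-Cre and -0.42 in the Pdx-Cre libraries.

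Cyb5r3 also belongs to the genes that the study named from knockout ALDH+ cells. That list was chosen by the study on this series, so it is not independent evidence of direction. Of its 21 members 15 were tested, 11 were lower in KO and none passed the threshold. At an unadjusted p of 0.05, 6 were lower and none higher, against 2.75% and 2.27% of all genes, and the median log2 difference was -0.43.

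Galntl4, a GalNAc transferase-like gene, was 5.45, 6.70 and 17.0 FPKM in Ctrl and 1.72, 2.43, 0.592, 4.32 and 10.2 in KO. Its values were higher in the Pdx-Cre libraries within each genotype. Elovl6, a fatty acid elongase, and Ndor1, a flavin reductase, had log2 differences of 0.29 and 0.36, and the imprinted gene Peg3 -0.05. Cyp27b1, the vitamin D 1-alpha-hydroxylase, and Bach2, a transcriptional repressor, were too low to test, at or under 0.269 and 1.21 FPKM.

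Aldh1a3 was 0.768, 1.48 and 1.803 FPKM in Ctrl and 0.483, 4.19, 3.83, 0.482 and 4.09 in KO. KO 2, KO 3 and KO 5 were above every control, and KO 1 and KO 4 below every control. The log2 difference was 0.42 ± 0.54 (SE, adjusted p = 0.990 in limma).

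Beta cell identity genes did not separate the groups. Of 21 identity transcription factors tested, none had even an unadjusted p under 0.05, and the median log2 difference was 0.02 with a range of -0.46 to 0.41. Nkx6-1, which keeps beta cells from alternative islet fates, was 66.5, 63.0 and 28.0 FPKM in Ctrl and 56.3, 77.7, 56.7, 29.0 and 32.9 in KO. Its values followed the cre driver and not the genotype, with a log2 difference of 0.02 (95% interval -0.35 to 0.40).

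Mafa, a factor of mature beta cells, was 2.53, 3.11 and 1.89 FPKM in Ctrl and 5.42, 14.2, 2.25, 1.56 and 0.601 in KO. The KO libraries spanned the controls on both sides. Slc2a2, the glucose transporter GLUT2, was 105, 124 and 22.2 FPKM in Ctrl and 129, 232, 115, 21.4 and 9.74 in KO. Its log2 difference was 0.05 (95% interval -0.63 to 0.74).

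Of 28 genes of maturity and glucose response, none passed, and 2 were higher at an unadjusted p of 0.05, where 2.27% of all genes were: Snap25, a component of the exocytosis machinery, and Cacna1c, an L-type calcium channel subunit. Snap25 was 225, 212 and 258 FPKM in Ctrl and 329, 407, 372, 254 and 322 in KO, a log2 difference of 0.54. Cacna1c was 6.13, 6.89 and 5.84 FPKM in Ctrl and 10.7, 13.2, 11.6, 9.95 and 7.05 in KO, with no overlap. G6pc2, the islet glucose-6-phosphatase, had a log2 difference of -0.60.

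Hormone and granule genes gave 14 tested members, none past the threshold. The prohormone convertase gene Pcsk1, its inhibitor gene Pcsk1n and the granin Chga differed by 0.27, -0.38 and -0.40 on the log2 scale. The list of progenitor and dedifferentiation markers also held genes that the study found most overexpressed in triple Foxo knockouts. Of its 14 members tested none passed, and 7 were higher and 7 lower, with a median log2 difference of 0.07. The opioid precursor gene Penk and Ly96, a co-receptor of TLR4, were higher at an unadjusted p of 0.05, against 2.27% of all genes. Both come from those knockout genes. Penk was 0.204, 0.193 and 1.76 FPKM in Ctrl and 4.90, 0.659, 0.388, 9.11 and 10.1 in KO, so the groups overlapped. Ly96 was 76.2, 73.7 and 115 FPKM in Ctrl and 91.1, 264, 169, 111 and 207 in KO.

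The other islet hormones separated the libraries by cre driver. Glucagon (Gcg) was 699 and 854 FPKM in the RIP-Cre controls and 657, 888 and 664 in the RIP-Cre knockouts. In the Pdx-Cre libraries it was 38941 in Ctrl 3, and 16522 and 10082 in KO 4 and KO 5. Somatostatin (Sst) was 396 and 1005 FPKM in the RIP-Cre controls, 495 to 1007 in the RIP-Cre knockouts, 14811 in Ctrl 3, and 9333 and 8720 in KO 4 and KO 5. In bulk libraries, more cells of a type and more RNA per cell cannot be told apart.

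Pancreatic polypeptide (Ppy) was 754 and 732 FPKM in the RIP-Cre controls and 416, 211 and 252 in the RIP-Cre knockouts. It was 9756 in Ctrl 3, and 3439 and 1161 in KO 4 and KO 5, below the control within each driver. The log2 difference was -1.72 ± 0.35 (SE, adjusted p = 0.423 in limma), at -1.40 in the RIP-Cre and -2.29 in the Pdx-Cre libraries. The related peptide gene Pyy differed by -1.25 (adjusted p = 0.858), at -0.99 and -1.72 within the drivers. In ALDH+ cells Ppy was 144 FPKM in the RIP-Cre control and 184, 96.3 and 110 in the RIP-Cre knockouts, on both sides of that control. It was 2133 in the Pdx-Cre control, and 128 and 202 in the Pdx-Cre knockouts.

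Ghrelin (Ghrl), the hormone of epsilon cells, had no fragment in any Ctrl library or in any RIP-Cre knockout. It stood at 40.3 FPKM in KO 4 and 50.5 in KO 5, from 140 and 153 fragments. Within the Pdx-Cre libraries it was at least 40.3-fold higher in KO, taking 3 fragments as the floor for the 1 control library. Ghrl had the smallest p of the genotype by cre driver interaction, in which no gene of 11132 passed (0%, 337 at an unadjusted p of 0.05 in limma). Its adjusted p there was 0.132. In ALDH+ cells Ghrl was highest in the Pdx-Cre control, at 1.97 FPKM.

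The alpha cell marker Ttr was 488, 511 and 772 FPKM in Ctrl and 372, 402, 401, 277 and 169 in KO, with no overlap and an adjusted p of 0.821 in limma. The summed alpha cell markers ran from 1396 to 1867 FPKM in the RIP-Cre libraries of both genotypes. They were 40238 in Ctrl 3, and 17310 and 10731 in KO 4 and KO 5. With 1 Pdx-Cre control, which also differed from KO 4 in Xist and Y-linked transcripts, a genotype difference within that driver cannot be told apart from a difference between single libraries.

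**Figure D5:**
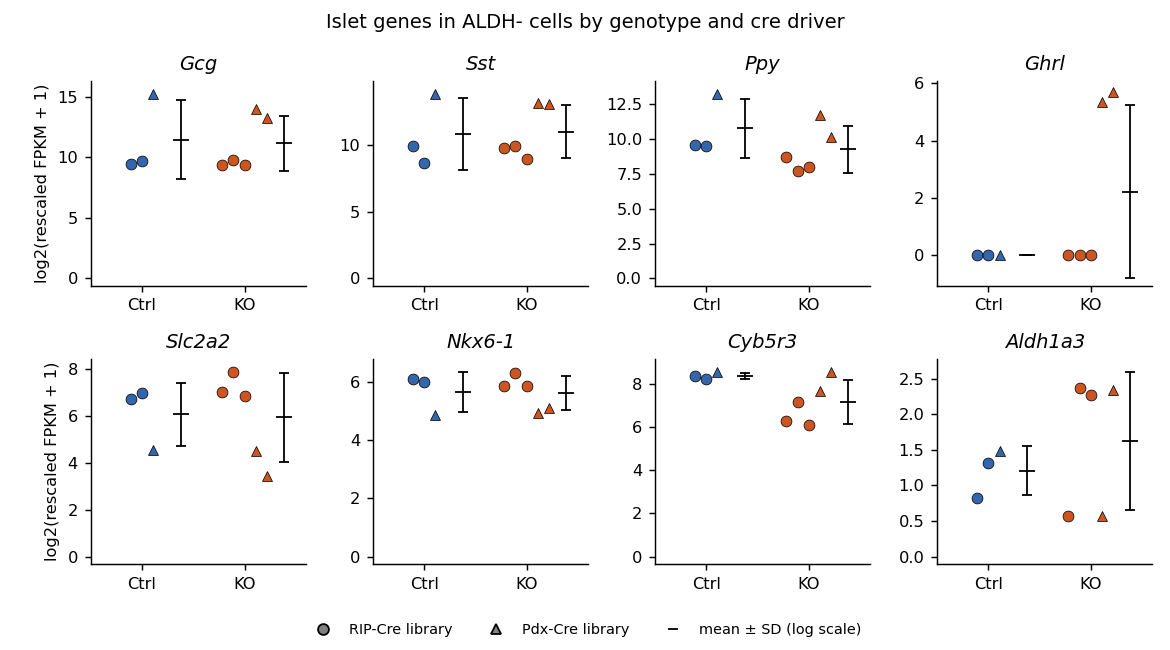
Expression of 8 islet genes in each ALDH- library as log2(rescaled FPKM + 1), by genotype, with circles for RIP-Cre and triangles for Pdx-Cre libraries and a bar for the mean ± SD of each group (3 Ctrl, 5 KO). Gcg, Sst and Ppy are higher and Slc2a2 and Nkx6-1 lower in the Pdx-Cre libraries of both genotypes, Ghrl is above 0 in KO 4 and KO 5 alone, and Cyb5r3 is below the controls in the RIP-Cre knockouts.

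Pathway genes around FoxO were quiet. Of 31 genes of insulin and IGF signalling tested none had an unadjusted p under 0.05, and the median log2 difference was -0.01. The smallest p-values belonged to Pdpk1, the kinase that activates Akt, at 0.32, and Pik3r2, a regulatory subunit of PI 3-kinase, at -0.63.

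Metabolic lists gave no call. In glycolysis 12 of 17 genes were lower in KO, and the phosphofructokinase genes Pfkl and Pfkp had log2 differences of -0.95 and -0.65 at unadjusted p-values of 0.0188 and 0.0230 in limma, where 2.75% of all genes were lower at 0.05. Pfkl was 9.47 and 10.2 FPKM in the RIP-Cre controls and 4.31, 1.55 and 4.79 in the RIP-Cre knockouts. It was 35.7 in Ctrl 3, and 22.9 and 38.6 in KO 4 and KO 5. The Pdx-Cre libraries were thus the higher ones for Pfkl, as for Tpi1, the triosephosphate isomerase gene, which differed by -0.43.

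In fatty acid oxidation 13 of 19 genes were lower in KO, with -0.72 for Acadm, a medium-chain acyl-CoA dehydrogenase, and -0.85 for the isomerase gene Eci1. Among elongases, desaturases and reductases, Elovl2 was 17.4, 14.6 and 18.0 FPKM in Ctrl and 29.3, 25.1, 34.6, 20.2 and 19.6 in KO, with no overlap. Elovl7 differed by -0.67. The median over the 14 genes of that list was 0.08.

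Among complex I genes 23 of 36 were lower in KO, at a median log2 difference of -0.13, and the subunits Ndufs6, Ndufb10 and Ndufb7 differed by -0.41, -0.49 and -0.41. Complex IV had 5 of 13 genes lower and complex V 8 of 17, with medians of 0.06 and 0.01. Cox8a, a complex IV subunit, was 486, 498 and 569 FPKM in Ctrl and 564, 913, 711, 681 and 968 in KO. Over all genes tested the median was -0.01.

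The protein synthesis and breakdown lists had no member past the threshold. Proteasome subunits were lower in 30 of 37 cases (median -0.14), with -0.60 for Psmd9 and -0.54 for Psmd4. At an unadjusted p of 0.05, 2 were lower, Psmd9 and Psmb5, and none higher, against 2.75% and 2.27% of all genes. Cytosolic ribosomal protein genes were lower in 56 of 81 cases (median -0.12), and 6 were lower and 1 higher at that level, against the same shares of all genes. Rps4x was 413, 430 and 494 FPKM in Ctrl and 302, 273, 268, 311 and 407 in KO, with no overlap. Rps4y2 and Rps3a differed by -0.77 and -0.63, and near-identical copies of such genes can share reads. Of 73 mitochondrial ribosomal protein genes 40 were lower (median -0.04), with 2 lower and 2 higher at that level, and Mrps12, Mrpl21 and Mrpl32 differed by -0.71, -0.69 and 0.60.

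Of 26 genes of ER stress 18 were lower (median -0.12), among them the disulfide isomerase gene Pdia6 at -0.32. Of 9 lysosomal cathepsins 5 were lower, and Ctsd was 147, 124 and 148 FPKM in Ctrl and 97.2, 96.1, 104, 106 and 131 in KO. Ctsh and Ctso differed by -0.997 and -0.431. None of these lists had a member past the threshold.

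Of 8 cell cycle genes tested 6 were lower. The cyclin gene Ccnd1 was 40.5, 37.8 and 36.4 FPKM in Ctrl and 18.0, 13.4, 18.5, 47.9 and 12.7 in KO. KO 4 lay above every control and the other KO libraries well below. Ccnd3 differed by -0.48.

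Nuclear long noncoding RNAs were higher in KO in 8 of 9 cases, at a median log2 difference of 0.48 with no member at an unadjusted p under 0.05. The imprinted RNA Meg3 was 32.2, 13.5 and 37.2 FPKM in Ctrl and 73.9, 60.6, 78.8, 61.3 and 13.6 in KO. KO 5 was at the level of the lowest control for Meg3 and the other KO libraries lay above every control. The snoRNA host genes Snhg11 and Gas5 differed by 1.13 and 0.48. Immediate early and dissociation genes were higher in 16 of 21 cases (median 0.10), and 1 of 4 disallowed genes tested, which beta cells normally keep silent, was higher.

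Markers of the other cell types gave few testable genes. The duct keratin genes Krt18 and Krt19 differed by -0.52 and 1.09, and of 7 duct markers 6 were lower in KO. Their summed level was 484 to 541 FPKM in Ctrl and 287 to 756 in KO. Of 5 acinar markers tested 4 were higher, with sums of 2.31 to 45.7 FPKM in Ctrl and 3.09 to 439 in KO. Of 4 macrophage and leukocyte markers tested 3 were lower and 1 higher. Fcer1g, an Fc receptor chain of leukocytes, differed by -1.14 with overlapping groups. The 1 higher marker had KO values wholly above Ctrl, as did 1.43% of all genes. Glial and neuronal markers summed to at most 2.40 FPKM in any library.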

How the data were processed

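Sorted ALDH- islet cells in 5 KO and 3 Ctrl libraries were compared, with groups taken from the labels. The authors deposited 1 table of 23699 gene lines per library with FPKM values and confidence bounds in the layout of Cufflinks. Their processing notes name mm9, bcl2fastq 1.8.4 and TopHat2 2.0.4, and the quantifier's version, the annotation and the use of strand are not given in the sources used here. Symbols on several lines (248 on 712 lines) and 45 further lines with a failed or too-deep estimate were left out, which left 22942 genes.

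A trimmed mean of M-values without weights set each library's scale (30% of M and 5% of A trimmed). Log2(rescaled FPKM + 1) was fitted with limma 3.58.1 (R 4.3.3), with a trended prior, on genotype and cre driver, for genes with mean rescaled FPKM of at least 1. Fold changes on this scale understate those of low genes. Tests were two-sided with Benjamini-Hochberg adjustment over all genes and a threshold of 0.05. The interaction with ALDH used all 15 libraries. Fragments per gene came from the confidence interval width, taken as 2 Poisson standard errors. Of values below 500 fragments, 66.5% came within 0.02 of an integer, so the main fits used no counts. The voom fit and the exact binomial intervals of Foxo4 and Dusp26 do rest on these inferred fragments, and share that limit.

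Named genes are Foxo1, Foxo3 and Foxo4, 12 genes of lowest p per direction, genes past the threshold, up to 3 leading members of each list and 15 genes of the study, of which 1 is not reported here. List members with p above 0.1 were left unnamed, a limit set after their values were seen. The members and lists were chosen with earlier results of these data known. Procedures were tested on simulated data. Alternatives included other scaling, pseudocounts, filters, weights, voom, the RIP-Cre libraries alone and each library left out. The Pdx-Cre libraries were not fitted alone.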

Additional observations from a re-analysis of the deposited data

Results flagged for a closer look

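Among 82 named genes, 5 had 1 KO library that stood away from the other 4 by Dixon's criterion on the log2 scale, which chance alone gives in about 1 of 20 groups. Of the 5, 4 concern KO 5. Foxo1 was lowest there, at 0.0978 rescaled FPKM against 2.41 to 4.05 in the other KO libraries. G6pc2 was lowest there, at 566 FPKM against 1210 to 1566. Meg3 was lowest there, at 13.6 FPKM against 60.6 to 78.8. Mrpl21 was lowest there, at 7.22 FPKM against 13.6 to 16.5. Ccnd1 was highest in KO 4, at 47.9 FPKM against 12.7 to 18.5 in the others. KO 5 was also the KO library that correlated least with the rest, lacked Y-linked transcripts and held the most acinar marker RNA; the part of these features in the values was not tested.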

How the results depend on the processing

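The count of genes called lower was 1 in place of 2 without scaling, with a pseudocount of 0.1, without the cre driver, with all 15 libraries and with the replicate block, and leaving out 1 library gave 1 to 3. The call kept in most of these was Mir686; with the block it was Snora64, named here after its value was seen. Fxyd6 passed under 6 of 21 alternatives and kept its sign under all. The count called higher was 0, except for 1 with all 15 libraries. With no filter on low values the genotype by cre driver interaction called 168 genes and the interaction with ALDH 16, where the report has 0. Without both libraries lacking Y-linked transcripts, an alternative added after seeing the data, 2 genes were called lower, Mir686 and Snora7a (also named after its value was seen), and Fxyd6 was not. At an unadjusted p of 0.05 library weights passed 953 genes and the fit without KO 5 736, against 559.

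Replicate numbers are shared between KO and Ctrl, and deviations from the group means of same-numbered libraries correlated at 0.131, 0.131 and -0.135. The cre driver was not removed from these values, and pair 3 sets a Pdx-Cre control against a RIP-Cre knockout. They therefore cannot decide whether a shared number marks a pairing. The replicate block called 1 gene. Its genotype effect rests on pairs 1 and 2, because pair 3 differs in driver as well.

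Signs turned for genes close to 0. Sst was 0.20 with quantile normalization, 0.18 without the cre driver, 0.0299 with all 15 libraries, 0.27 in RIP-Cre libraries alone and without both libraries lacking Y-linked transcripts, 0.59 with the block and 0.0934 with weights. Nkx6-1 was -0.0480 without the cre driver, -0.0417 in RIP-Cre libraries alone, -0.0418 without those 2 libraries, -0.0259 with weights and -0.0119 with voom. Slc2a2 was -0.14 without the cre driver, and Peg3 0.0291 with weights. Over the fits that left out 1 library, Sst ran from -0.55 to 0.27, Nkx6-1 from -0.0637 to 0.0756, Slc2a2 from -0.18 to 0.41, Peg3 from -0.22 to 0.0920 and Mafa from -0.0519 to 0.84.

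Depth limits genes such as Foxo4, Dusp26 and Mir686, and 1 Pdx-Cre control limits every comparison within that driver.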
